A study of Trichoderma atroviride IMI 206040 with 36 samples.

Results

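Nutrient transporter genes whose transcripts were lower after blue light in wild type (WT) mycelium of the filamentous fungus *Trichoderma atroviride* IMI 206040 are described here across photoreceptor mutants. They are TRIATDRAFT_153853 (JGI protein ID.153853), named by the study as an MFS monocarboxylate transporter, TRIATDRAFT_45374 (ID.45374), named as a major facilitator superfamily transporter, and TRIATDRAFT_29031 (ID.29031), named as a carboxylic acid transport protein. These 3 of the 11863 transcripts in the table were taken by their JGI numbers, and had been chosen by their lower transcript level in light in these WT libraries. The study names TRIATDRAFT_153853 among genes repressed in both WT and Δenv-1, and TRIATDRAFT_29031 among WT-repressed genes dependent on BLR-1. Contrasts with Δenv-1 or Δblr-1 are therefore not free of that choice. Locus tags end in the JGI number, and the plots give that number alone. All 3 were among the 9605 genes that passed the filter on low counts.

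The series compared RNA of mycelium 30 min after a blue light pulse of 200 μmol per square metre with RNA of mycelium never exposed to light. Colonies were grown for 36 h on potato dextrose agar covered with cellophane, with 3 biological replicates of each strain and treatment. The strains covered are Δenv-1, in which a hygromycin resistance marker replaced the env-1 reading frame, Δblr-2, Δblr-1 and the WT, each in light and in darkness, which makes 24 libraries. The submitters left Δenv-1 darkness replicate 3, as more variable, and all Δblr-2 libraries out of their own analysis. Values of that replicate are shown here, but the fits use 23 libraries, so that Δenv-1 darkness enters them with replicates 1 and 2.

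The major facilitator superfamily (MFS) is a large family of membrane carriers that move sugars, organic acids, amino acids, nitrate, drugs and toxins across membranes, usually by coupling the solute to a proton or by exchange. Monocarboxylate carriers move lactate, pyruvate and related short acids, and in Saccharomyces cerevisiae the lactate permease is made when glucose is scarce. BLR-1 and BLR-2 are the Trichoderma counterparts of the White Collar proteins, which form a blue light receptor and transcription factor complex. ENVOY, the product of env-1, is a small blue light receptor of the VIVID type that tempers the response of that complex. The substrates of the 3 carriers are known here from their annotation alone.

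Library totals ranged from 1519260 to 22011847 estimated counts, with a median of 8148940. The light pulse markers env-1, blu-1 and phr-1 summed to 2376 to 2445 CPM in Δenv-1 light, against 372 to 391 CPM in Δenv-1 darkness, and to 1522 to 1829 CPM in WT light, against 356 to 384 CPM in WT darkness. In Δblr-1 the same sum was 321 to 388 CPM in light and 360 to 391 CPM in darkness, and in Δblr-2 440 to 492 CPM in light, against 292 to 356 CPM in darkness. The Δblr-2 sum was mostly phr-1, and its markers did not move alike. There blu-1 averaged 95.9 ± 42.0 CPM in light, against 4.28 ± 1.58 CPM in darkness (SD, n = 3 each). In the same strain phr-1 averaged 362 and 328 CPM, and env-1 0.741 and 1.13 CPM, in light and darkness. CPM are counts scaled to a common library size with TMM factors over the 24 libraries. The env-1 transcript (TRIATDRAFT_150699) was still counted at 260.0 ± 21.6 CPM (SD, n = 3) in Δenv-1 light and 34.8 ± 4.23 CPM (SD, n = 3) in Δenv-1 darkness, against 107 ± 1.66 and 1.85 ± 0.18 CPM (SD, n = 3 each) in WT light and WT darkness. Counts per transcript do not tell whether these reads lie outside the replaced reading frame, so they do not check the Δenv-1 label. The study reports Δenv-1 reads in the untranslated region at the 3' end of env-1, outside the replaced part. The Ids of blr-1 and blr-2 were not given in the sources used here.

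Among the mutants, a lower level in light passed the test for 1 of the 3 genes in 1 strain. The study had listed that gene, TRIATDRAFT_153853, as repressed in both WT and Δenv-1 in these same samples. Its call in Δenv-1 is thus not independent of how it came to be named. In Δenv-1 light the monocarboxylate carrier gene TRIATDRAFT_153853 was 4.03-fold lower, a change past the test, and gene TRIATDRAFT_45374 was 1.96-fold lower, with a fold just under the minimum used that passed it under the replicate block. In Δblr-1 none of the 3 passed the test. The study had listed TRIATDRAFT_29031 as dependent on BLR-1, so its missing call in Δblr-1 is not independent either. Apart from light, TRIATDRAFT_153853 and TRIATDRAFT_45374 had lower levels in Δblr-2 than in Δblr-1 or Δenv-1. Gene TRIATDRAFT_29031, with 1 to 19 counts per library, showed no called change in any comparison between or within the mutants.

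**Figure D1:**
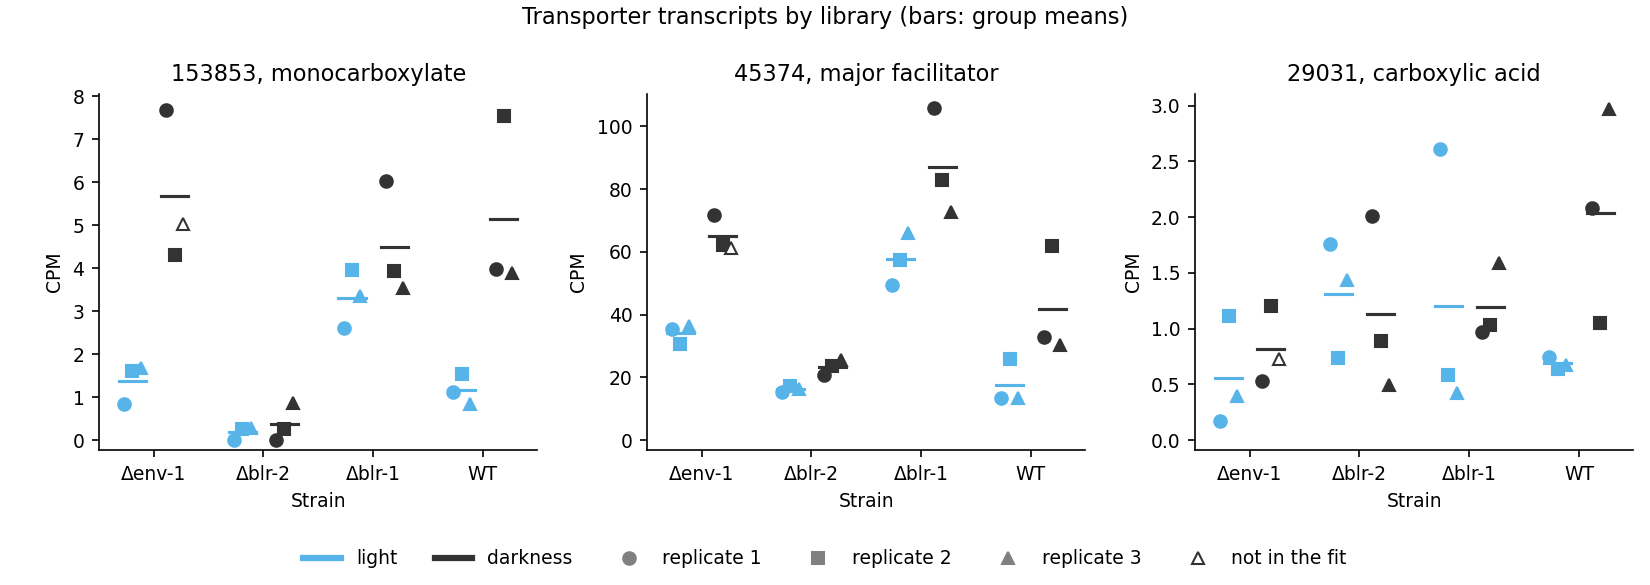
CPM (TMM-normalized, vertical axis from 0, a separate scale per gene) of genes TRIATDRAFT_153853, TRIATDRAFT_45374 and TRIATDRAFT_29031 in each library of Δenv-1, Δblr-2, Δblr-1 and WT, light in blue and darkness in black. Marker shapes give the replicate number, short bars the mean of 3 libraries, and the open triangle Δenv-1 darkness replicate 3, which is not in the fits. Gene TRIATDRAFT_45374 has every light library below every dark library of its own strain in the 3 mutants, and in WT, which chose the genes, and TRIATDRAFT_153853 lies at or under 0.853 CPM in all Δblr-2 libraries. The share of all tested genes without overlap was not counted.

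Gene TRIATDRAFT_153853, the monocarboxylate carrier, had 0.845, 1.595 and 1.67 CPM in Δenv-1 light, against 7.68, 4.32 and 5.03 CPM in Δenv-1 darkness. The 0.845 CPM of light replicate 1 came from 5 counts. Every light library lay below every dark library, a pattern whose share over all tested genes was not counted. The log2 fold change was -2.01 (SE 0.42, 95% interval -2.88 to -1.14, edgeR quasi-likelihood adjusted p = 0.00464). Calls needed an adjusted p no higher than 0.05 and a log2 fold change of 1 or more in size, and TRIATDRAFT_153853 was the member called in Δenv-1, 1 of 3, where 0.312% of all tested genes were called lower. Without Δenv-1 darkness replicate 1, which leaves replicate 2 as the lone dark library, assumed to vary like the other groups, it was -1.57 (adjusted p = 0.105) and no longer called.

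In Δblr-1 light TRIATDRAFT_153853 had 2.61, 3.95 and 3.36 CPM, against 6.02, 3.92 and 3.53 CPM in Δblr-1 darkness. The 2.61 CPM of light replicate 1 came from 4 counts in the library of lowest depth. Light over dark was 0.434, 1.01 and 0.952 in the libraries numbered 1, 2 and 3. The groups overlapped, and the highest light library stood above the lowest dark one. The log2 fold change was -0.31 (SE 0.39, 95% interval -1.11 to 0.50, adjusted p = 0.858). In Δblr-1 edgeR called 0 of the 3 genes, DESeq2 called 0 as well, with an unadjusted p under 0.05 for 1 of them (TRIATDRAFT_45374). Of the genes tested, 0.0625% were called lower and 0.135% higher in Δblr-1 light.

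In Δblr-2 the same gene was close to the limit of detection in both treatments. It had 0, 0.246 and 0.287 CPM in Δblr-2 light, from 0, 3 and 2 counts, against 0, 0.266 and 0.853 CPM in Δblr-2 darkness, from 0, 3 and 19 counts. A count of 0 allows up to 3 counts, which is 0.439 CPM in light replicate 1 and 1.20 CPM in darkness replicate 1. These limits cover counting error only. The log2 fold change of -1.51 (SE 0.75, 95% interval -3.08 to 0.05, adjusted p = 0.12) rested on darkness replicate 3. edgeR and DESeq2 each called 0 of the 3 genes in Δblr-2, with 1 of them (TRIATDRAFT_45374) at an unadjusted p under 0.05. Of all tested genes, 1.36% were called lower and 6.01% higher in Δblr-2 light.

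In WT, whose libraries were used to pick the genes, TRIATDRAFT_153853 had 1.12, 1.54 and 0.845 CPM in light, against 3.99, 7.54 and 3.88 CPM in darkness. The log2 fold change was -2.21 (SE 0.42), the 11th lowest of the 9605 genes, given without a test. Of all tested genes 0.354% were called lower in WT light. The WT values restate how the genes were chosen, and nothing is read from them.

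Gene TRIATDRAFT_45374, the other MFS carrier, had 35.3, 30.7 and 36.3 CPM in Δenv-1 light, against 71.7, 62.3 and 61.3 CPM in Δenv-1 darkness. The groups did not overlap. Its log2 fold change was -0.97 (SE 0.24, 95% interval -1.47 to -0.47), and the adjusted p of 0.0192 passed while the fold fell short of the minimum. With the replicate number as a block, a pairing left undecided in Δenv-1, it was called (-1.02, adjusted p = 7.19e-05), and likewise without Δenv-1 light replicate 3 (-1.03, adjusted p = 0.044). In Δblr-1 it had 49.6, 57.4 and 66.1 CPM in light, against 106, 82.8 and 72.7 CPM in darkness, a log2 fold change of -0.57 (SE 0.22, 95% interval -1.03 to -0.10, adjusted p = 0.27).

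In Δblr-2, TRIATDRAFT_45374 had 15.2, 17.1 and 16.3 CPM in light, against 20.9, 23.7 and 25.6 CPM in darkness, a log2 fold change of -0.57 (SE 0.25, 95% interval -1.09 to -0.04, adjusted p = 0.0822). In WT it had 13.3, 25.9 and 13.3 CPM in light, against 32.9, 61.9 and 30.4 CPM in darkness, a log2 fold change of -1.31 (SE 0.24, not tested). In each of the 3 mutants no light library of TRIATDRAFT_45374 reached a dark library of that strain. How many of all tested genes were likewise without overlap was not counted. In the main fit the adjusted p passed in Δenv-1 but not in Δblr-1 or Δblr-2. Among the alternative settings of the fit, its lowest value was 0.0163 in Δblr-1 and 0.00196 in Δblr-2. The gene stayed uncalled in both strains, with the fold under the minimum. The ratio of the light mean to the dark mean was 0.524 in Δenv-1, 0.694 in Δblr-2, 0.662 in Δblr-1 and 0.419 in WT.

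Gene TRIATDRAFT_29031, the carboxylic acid carrier, was read at 1 to 19 counts per library. It had 0.169, 1.11 and 0.393 CPM in Δenv-1 light, against 0.529, 1.21 and 0.728 CPM in Δenv-1 darkness, and the groups overlapped (log2 fold change -0.52, SE 0.63, 95% interval -1.84 to 0.80, adjusted p = 0.766). In Δblr-2 it had 1.76, 0.738 and 1.43 CPM in light, against 2.01, 0.886 and 0.494 CPM in darkness (0.61, SE 0.58, 95% interval -0.59 to 1.81, adjusted p = 0.437). Its estimate in Δblr-2 thus had the opposite sign to the other strains, within its error.

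In Δblr-1, TRIATDRAFT_29031 had 2.61, 0.586 and 0.420 CPM in light, against 0.971, 1.03 and 1.59 CPM in darkness (-0.67, SE 0.64, 95% interval -2.00 to 0.65, adjusted p = 0.76). The highest of these light values came from 4 counts in the library of lowest depth, and with it the light mean was 1.01 times the dark mean, against a fitted change below 0. In WT it had 0.746, 0.641 and 0.676 CPM in light, against 2.08, 1.05 and 2.97 CPM in darkness (-1.51, SE 0.56, not tested), from 5 to 12 counts in light and 6 to 13 in darkness.

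**Figure D2:**
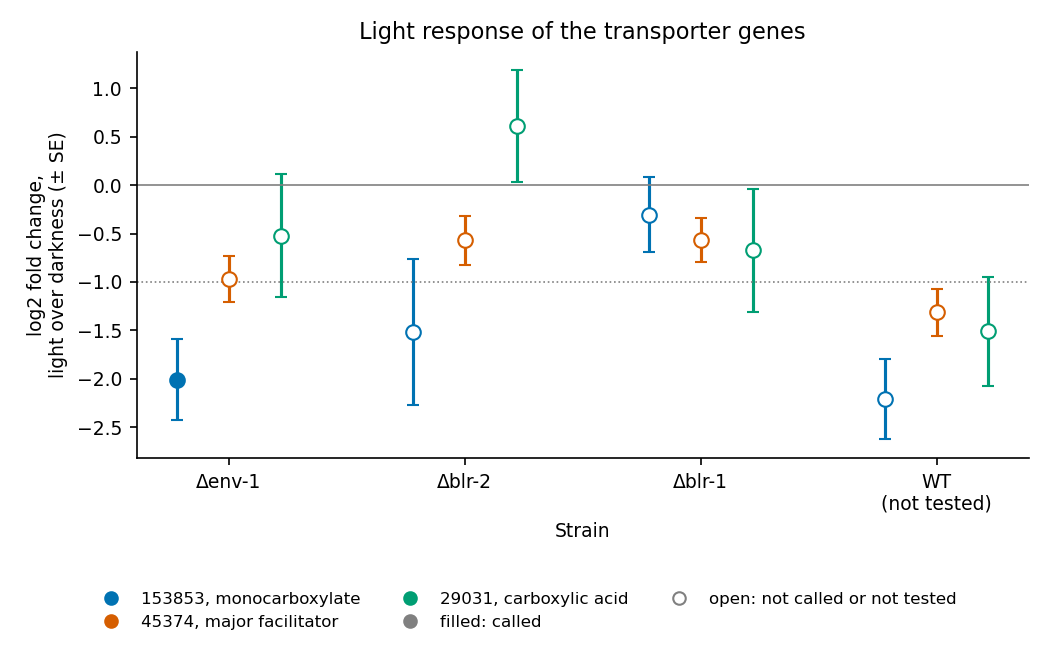
Log2 fold change of light over darkness (vertical axis, points with SE bars) for genes TRIATDRAFT_153853, TRIATDRAFT_45374 and TRIATDRAFT_29031 in Δenv-1, Δblr-2, Δblr-1 and WT. Filled points are called, the dotted line marks the fold minimum of 1 on the log2 scale, and the WT values were used to choose the genes. The one filled point is TRIATDRAFT_153853 in Δenv-1, at -2.01.

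The question whether a light response differed between mutants was asked without the WT libraries. These contrasts still used the Δenv-1 and Δblr-1 libraries behind the study's listing of TRIATDRAFT_153853 and TRIATDRAFT_29031, so they are not free of selection. For TRIATDRAFT_153853 the response in Δenv-1 was lower than in Δblr-1 by a log2 difference of -1.70 (SE 0.57, 95% interval -2.89 to -0.51), with an unadjusted p under 0.05 and an adjusted p of 0.183. For TRIATDRAFT_45374 this difference was -0.40 (SE 0.33, 95% interval -1.09 to 0.28, adjusted p = 0.788), and for TRIATDRAFT_29031 it was 0.15 (SE 0.90, adjusted p = 1). edgeR and DESeq2 called 0 of the 3, and 1 had an unadjusted p under 0.05, where 1.46% of all tested genes were called different. The call of TRIATDRAFT_153853 in Δenv-1 and its absence in Δblr-1 are therefore not shown to differ.

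The response of TRIATDRAFT_153853 in Δenv-1 minus that in Δblr-2 was -0.50 (SE 1.08, adjusted p = 0.804), and that of TRIATDRAFT_45374 was -0.40 (SE 0.35, adjusted p = 0.465). Between Δblr-2 and Δblr-1 the differences were -1.21 (SE 0.85, adjusted p = 0.389) for TRIATDRAFT_153853 and 1.28 (SE 0.86, adjusted p = 0.362) for TRIATDRAFT_29031. For TRIATDRAFT_45374 it was -0.0012 (95% interval -0.57 to 0.57, adjusted p = 1), so that a difference of either sign up to that size remains possible. None of the 3 genes was called by edgeR or DESeq2 in these comparisons, and the unadjusted p was under 0.05 for 0 of them. Of all genes tested, 20.2% were called different between Δenv-1 and Δblr-2 and 15.7% between Δblr-2 and Δblr-1.

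Levels of TRIATDRAFT_153853 and TRIATDRAFT_45374 also differed between strains, in light and in darkness. In light, TRIATDRAFT_153853 averaged 0.178 ± 0.155 CPM in Δblr-2 and 3.31 ± 0.673 CPM in Δblr-1 (SD, n = 3 each), a log2 ratio of -4.13 (SE 0.60, 95% interval -5.39 to -2.88, adjusted p = 1.11e-05). In darkness it averaged 0.373 ± 0.436 CPM in Δblr-2 and 4.49 ± 1.34 CPM in Δblr-1 (SD, n = 3 each), a log2 ratio of -2.93 (SE 0.46, adjusted p = 9.29e-05). All Δblr-2 libraries of a treatment lay below all Δblr-1 libraries of it, a pattern whose share over all tested genes was not counted. The dark ratio depended on 1 library: without Δblr-2 darkness replicate 3, the one with 19 counts, it was -4.27 (adjusted p = 0.000141).

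Gene TRIATDRAFT_45374 followed at a smaller scale. It averaged 16.2 ± 0.961 CPM in Δblr-2 light and 57.7 ± 8.27 CPM in Δblr-1 light (SD, n = 3 each), a log2 ratio of -1.85 (SE 0.25, adjusted p = 3.7e-06). In darkness the means were 23.4 ± 2.39 CPM in Δblr-2 and 87.1 ± 17.0 CPM in Δblr-1 (SD, n = 3 each), a log2 ratio of -1.85 (SE 0.23, adjusted p = 6.47e-06). In Δblr-2 against Δblr-1, 2 of the 3 genes were thus called lower in both treatments, where 2.32% of all tested genes were called lower in light and 1.16% in darkness. Gene TRIATDRAFT_29031 was not called in either (0.76, SE 0.63, adjusted p = 0.36 in light, and -0.52, SE 0.58, adjusted p = 0.606 in darkness).

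Against Δblr-2, Δenv-1 had higher levels of TRIATDRAFT_153853 and TRIATDRAFT_45374. In light, TRIATDRAFT_153853 averaged 1.37 ± 0.456 CPM in Δenv-1 (SD, n = 3), a log2 ratio over Δblr-2 of 2.83 (SE 0.66, 95% interval 1.46 to 4.20, adjusted p = 0.00132). In darkness it averaged 5.68 ± 1.77 CPM in Δenv-1 (SD, n = 3), a log2 ratio of 3.33 (SE 0.47, adjusted p = 4.09e-05), which was 4.67 (adjusted p = 7.33e-05) without Δblr-2 darkness replicate 3. For TRIATDRAFT_45374, at 34.1 ± 2.98 CPM in Δenv-1 light and 65.1 ± 5.75 CPM in Δenv-1 darkness (SD, n = 3 each), the log2 ratio over Δblr-2 was 1.06 (SE 0.24, adjusted p = 0.00124) in light and 1.46 (SE 0.25, adjusted p = 0.000311) in darkness. Of all tested genes, 3.15% were called higher in light and 1.37% in darkness. Gene TRIATDRAFT_29031 was not called, at -0.92 (SE 0.58, adjusted p = 0.21) in light and 0.22 (SE 0.62, adjusted p = 0.904) in darkness, but was called lower in light without Δenv-1 light replicate 2 (-1.97, adjusted p = 0.0409). The ratios over Δblr-2 and those of Δblr-2 over Δblr-1 share the Δblr-2 libraries.

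Between Δenv-1 and Δblr-1 none of the 3 genes was called. For TRIATDRAFT_153853 the log2 ratio was -1.30 (SE 0.42, 95% interval -2.18 to -0.43, adjusted p = 0.062) in light and 0.40 (SE 0.39, 95% interval -0.41 to 1.21, adjusted p = 0.961) in darkness. For TRIATDRAFT_45374 it was -0.79 (SE 0.23, 95% interval -1.27 to -0.31, adjusted p = 0.0375) in light, past the adjusted p but under the fold minimum, and -0.38 (SE 0.24, 95% interval -0.88 to 0.11, adjusted p = 0.849) in darkness. For TRIATDRAFT_29031 it was -0.15 (SE 0.68, adjusted p = 0.966) in light and -0.31 (SE 0.61, adjusted p = 1) in darkness. edgeR and DESeq2 called 0 of the 3 genes in either treatment, with 2 at an unadjusted p under 0.05 in light and 0 in darkness, against 1.41% of all genes called in light and 0.135% in darkness. In light the ratio of TRIATDRAFT_153853 was called by edgeR's likelihood ratio test (-1.30, adjusted p = 0.0257) and with these strains fitted alone (-1.31, adjusted p = 0.0226).

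**Figure D3:**
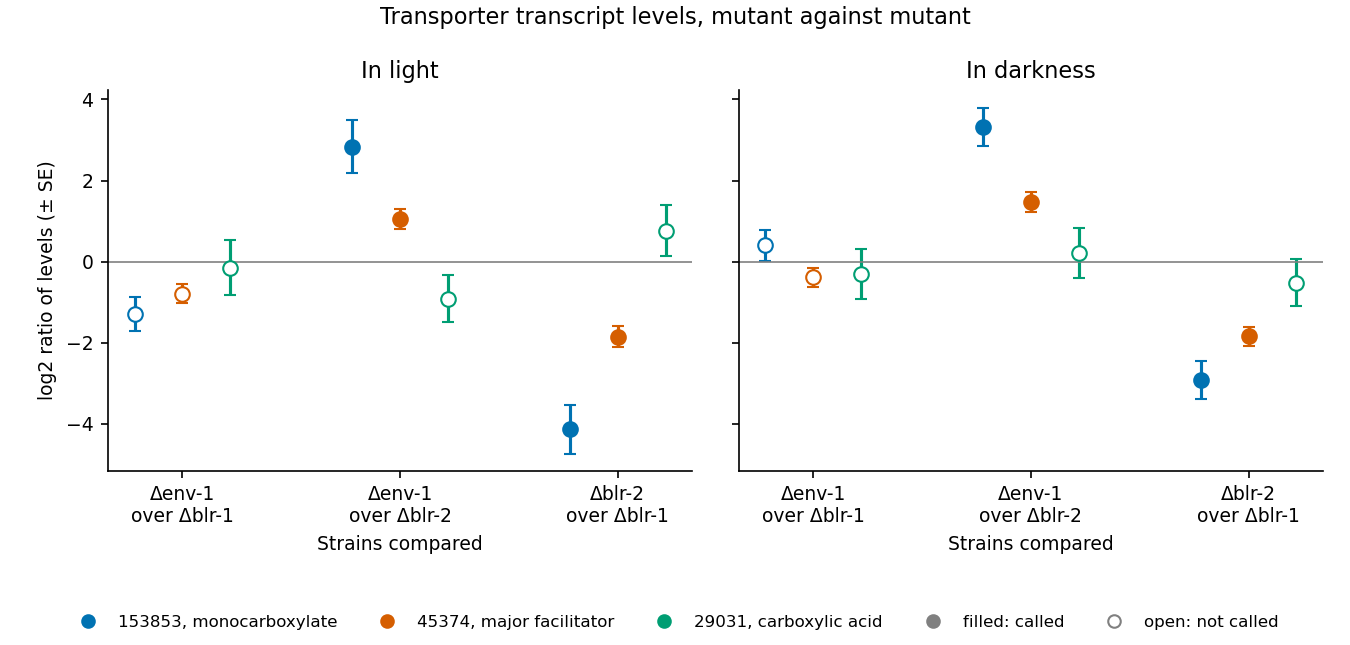
Log2 ratio of transcript levels between mutants (vertical axis, points with SE bars), in light (left) and in darkness (right), for genes TRIATDRAFT_153853, TRIATDRAFT_45374 and TRIATDRAFT_29031. Filled points are called. Genes TRIATDRAFT_153853 and TRIATDRAFT_45374 are below 0 for Δblr-2 over Δblr-1 and above 0 for Δenv-1 over Δblr-2 in both treatments, and TRIATDRAFT_29031 is open throughout.

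Ranked over the 8 groups by mean CPM, TRIATDRAFT_153853 was highest in Δenv-1 darkness, followed by WT darkness, Δblr-1 darkness, Δblr-1 light, Δenv-1 light, WT light, Δblr-2 darkness and Δblr-2 light. The highest mean was 32.0 times the lowest. Of the 7 pairs of neighbours in this order, 6 had overlapping ranges, and the step from Δblr-1 light to Δenv-1 light was the exception. Gene TRIATDRAFT_45374 was highest in Δblr-1 darkness, followed by Δenv-1 darkness, Δblr-1 light, WT darkness, Δenv-1 light, Δblr-2 darkness, WT light and Δblr-2 light, over a 5.36-fold range. Here 5 of 7 neighbour pairs overlapped, and Δblr-1 darkness against Δenv-1 darkness and Δenv-1 light against Δblr-2 darkness did not. For TRIATDRAFT_29031 all 7 neighbour pairs overlapped, from WT darkness at 2.03 ± 0.959 CPM to Δenv-1 light at 0.557 ± 0.491 CPM (SD, n = 3 each).

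Relative to WT, and given without a test since WT chose the genes, TRIATDRAFT_45374 was higher in Δblr-1 by a log2 ratio of 1.79 (SE 0.24) in light and 1.04 (SE 0.23) in darkness, and in Δenv-1 by 1.003 (SE 0.24) in light and 0.66 (SE 0.25) in darkness. In Δblr-2 its ratio to WT was -0.06 (SE 0.25) in light and -0.80 (SE 0.24) in darkness. Gene TRIATDRAFT_153853 had ratios to WT of -2.46 (SE 0.68) in Δblr-2 light and -3.16 (SE 0.47) in Δblr-2 darkness, 1.67 (SE 0.43) in Δblr-1 light and -0.23 (SE 0.37) in Δblr-1 darkness, and 0.37 (SE 0.45) in Δenv-1 light and 0.17 (SE 0.39) in Δenv-1 darkness. The genes were chosen for a lower WT level in light than in darkness, so nothing is read from ratios above WT in light.

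Genes of conidia, the asexual spores, moved with some of these libraries. The 3 conidiation markers, a hydrophobin (TRIATDRAFT_258295), the pigment polyketide synthase gene alb-1 (TRIATDRAFT_217154) and a conidiospore surface protein gene (TRIATDRAFT_323283), summed to 13.8 to 34.4 CPM in Δenv-1 light, against 19.6 to 952 CPM in Δenv-1 darkness. Of these markers 3 of 3 were called lower in Δenv-1 light, where 0.312% of all tested genes were. The study had named them from a cluster lowered only in Δenv-1 in these same samples, so that count restates their choice. In Δenv-1 replicate 2, where the sum was 13.8 CPM in light and 19.6 CPM in darkness, TRIATDRAFT_153853 had 1.595 CPM in light, against 4.32 CPM in darkness, and TRIATDRAFT_45374 had 30.7 CPM in light, against 62.3 CPM in darkness. In WT the sum ranged from 25.9 to 438 CPM in light and from 56.1 to 480 CPM in darkness, and replicate 2, with the lowest sum of each treatment, had the highest TRIATDRAFT_153853 and TRIATDRAFT_45374 of each. In Δblr-1 it was 16.2 to 33.8 CPM in light and 17.7 to 43.9 CPM in darkness, and in Δblr-2 19.5 to 24.6 CPM in light and 19.5 to 23.2 CPM in darkness. No marker was at 0 in any library, and their part in the transporter levels was not tested.

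Across the 24 libraries, log2(CPM + 1) of TRIATDRAFT_153853 and TRIATDRAFT_45374 correlated with Pearson's r = 0.847 (Spearman's rho = 0.807). The points share strains and treatments, and both genes had been picked for the same WT difference. Gene TRIATDRAFT_29031 had r = 0.0045 with TRIATDRAFT_153853 and -0.078 with TRIATDRAFT_45374. The 3 genes whose pattern was most like TRIATDRAFT_153853 were TRIATDRAFT_223009, named as the alanine-glyoxylate aminotransferase AGT2, an enzyme that makes glycine from glyoxylate (r = 0.929), TRIATDRAFT_129632 (r = 0.914) and TRIATDRAFT_320350 (r = 0.911), and no other tested gene exceeded 0.9. For TRIATDRAFT_45374 they were TRIATDRAFT_141876 (r = 0.951), TRIATDRAFT_163392 (r = 0.948) and again TRIATDRAFT_223009 (r = 0.946), among 16 genes above 0.9. For TRIATDRAFT_29031 the closest were TRIATDRAFT_33382 (r = 0.742), TRIATDRAFT_313956 (r = 0.713) and TRIATDRAFT_87481 (r = 0.708).

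The aminotransferase gene TRIATDRAFT_223009 averaged 10.5 ± 1.12 CPM in Δenv-1 light and 31.8 ± 2.68 CPM in Δenv-1 darkness, 1.65 ± 0.444 CPM in Δblr-2 light and 3.60 ± 0.350 CPM in Δblr-2 darkness (SD, n = 3 each). It averaged 26.7 ± 4.63 CPM in Δblr-1 light and 43.6 ± 8.42 CPM in Δblr-1 darkness, and 5.03 ± 2.80 CPM in WT light and 26.5 ± 17.8 CPM in WT darkness (SD, n = 3 each). It was picked for its likeness over these same libraries, so its fitted values are a description with no test. The log2 fold change in light was -1.61 (SE 0.34) in Δenv-1, -1.12 (SE 0.52) in Δblr-2 and -0.68 (SE 0.31) in Δblr-1. Its log2 ratio of Δblr-2 over Δblr-1 was -4.00 (SE 0.44) in light and -3.56 (SE 0.37) in darkness.

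In the gene order of the RefSeq annotation of *T. atroviride* strain P1 (assembly ASM2064779v1), a different strain from the one sequenced, TRIATDRAFT_141876 lies 2 places from TRIATDRAFT_45374, with 1 gene between them. It ranked 1st among 9604 other genes in likeness to TRIATDRAFT_45374. Among the 11 tested genes within 3 places of a member it was the exception, since the others had r between -0.506 and 0.522 with their neighbour. Gene TRIATDRAFT_141876 averaged 95.6 ± 2.48 CPM in Δenv-1 light and 113 ± 8.78 CPM in Δenv-1 darkness, and 104 ± 14.7 CPM in Δblr-1 light and 125 ± 15.2 CPM in Δblr-1 darkness (SD, n = 3 each). It averaged 63.4 ± 4.85 CPM in Δblr-2 light and 76.8 ± 8.61 CPM in Δblr-2 darkness, and 58.9 ± 13.0 CPM in WT light and 84.5 ± 21.3 CPM in WT darkness (SD, n = 3 each). Its log2 ratio of Δblr-2 over Δblr-1 was -0.75 (SE 0.15) in light and -0.68 (SE 0.15) in darkness, given without a test since likeness over these libraries chose it. Whether the genes are also neighbours in the strain sequenced was not tested.

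**Figure D4:**
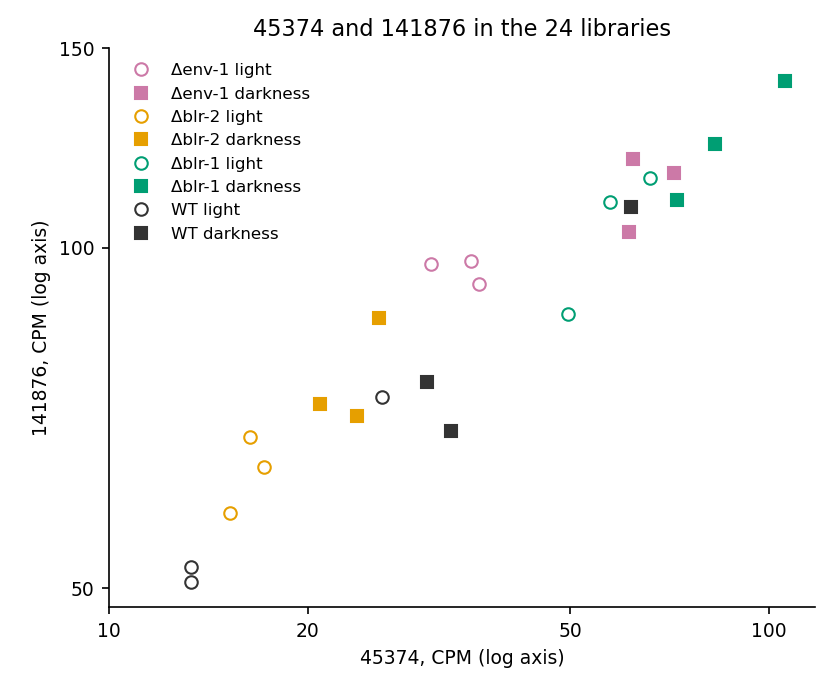
CPM of gene TRIATDRAFT_141876 (vertical axis, log) against CPM of gene TRIATDRAFT_45374 (horizontal axis, log) in each of the 24 libraries, coloured by strain, with open circles for light and filled squares for darkness. The points rise together (r = 0.951 of log2(CPM + 1)), with Δblr-1 darkness at the upper end, and WT light replicates 1 and 3 at the lower end.

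Set beside them were 9 other transporter genes that the study names by product, a list made from these same samples and so not independent evidence of any direction. In Δenv-1, 3 of the 9 were called higher and 3 lower in light, where 0.968% and 0.312% of all tested genes were. The higher ones were TRIATDRAFT_201457, a toxin efflux pump of the MFS (3.04, SE 0.13, adjusted p = 1.61e-13), the multidrug resistance gene TRIATDRAFT_302688 (1.91, SE 0.10, adjusted p = 7.7e-12) and the MIP transporter TRIATDRAFT_283564 (1.42, SE 0.36, adjusted p = 0.0252). The lower ones were the MFS multidrug gene TRIATDRAFT_53012 (-5.83, SE 1.05, adjusted p = 0.00122), the MFS gene TRIATDRAFT_225948 (-1.22, SE 0.30, adjusted p = 0.0183) and TRIATDRAFT_131293, named as an alpha subunit of a sodium and potassium pump (-1.13, SE 0.20, adjusted p = 0.00127). The list's median was -0.63, against 0.0036 over all genes tested.

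Libraries differed widely for TRIATDRAFT_53012, which had 1.01, 0.277 and 0.393 CPM in Δenv-1 light, against 56.4, 0.635 and 82.9 CPM in Δenv-1 darkness. The MFS gene TRIATDRAFT_225948 had 5.41, 5.27 and 4.22 CPM in Δenv-1 light, against 18.1, 5.97 and 23.95 CPM in Δenv-1 darkness. Both were high in the dark replicates 1 and 3, in which the conidiation markers were also high, and near the light level in replicate 2. The part of conidiation in these changes was not tested. Gene TRIATDRAFT_131293 had 1.86, 2.64 and 3.34 CPM in Δenv-1 light, against 7.02, 5.08 and 6.49 CPM in Δenv-1 darkness, without overlap. The nitrate transporter gene TRIATDRAFT_217165, which was not called (-3.05, SE 0.89, adjusted p = 0.0514), had 0.338, 0.416 and 1.08 CPM in Δenv-1 light, against 10.5, 1.02 and 13.8 CPM in Δenv-1 darkness.

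All 3 lower calls and 1 of the 3 higher calls needed Δenv-1 darkness replicate 1. Without it, which again leaves replicate 2 as the lone dark library in the fit, the log2 fold change was -0.40 (adjusted p = 0.948) for TRIATDRAFT_53012, -0.26 (adjusted p = 0.816) for TRIATDRAFT_225948, 1.10 (adjusted p = 0.285) for TRIATDRAFT_283564 and -0.90 (adjusted p = 0.0366, under the fold minimum) for TRIATDRAFT_131293. Leaving out Δenv-1 light replicate 2 or 3 also ended the calls of TRIATDRAFT_225948 (adjusted p = 0.0556 and 0.0846) and TRIATDRAFT_283564 (adjusted p = 0.071 and 0.0965), and leaving out light replicate 1 that of TRIATDRAFT_131293 (-0.99). The call of TRIATDRAFT_225948 was also lost under the replicate block (-0.89, adjusted p = 0.0743) and with Δenv-1 fitted alone (-1.22, adjusted p = 0.116), and that of TRIATDRAFT_53012 with Δenv-1 fitted alone (-5.83, adjusted p = 0.0575). DESeq2 called 4 of the 9 lower in Δenv-1 light, with TRIATDRAFT_217165 added (adjusted p = 0.00712). That gene was also called by the likelihood ratio test (adjusted p = 0.00917), under the replicate block (0.00421), at a minimum count of 50 (0.0482) and with Δenv-1 darkness replicate 3 (0.00615), and with 5 of the 23 libraries left out in turn.

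In Δblr-2 light 2 of the 9 were called higher, where 6.01% of all tested genes were called higher and 1.36% lower. They were TRIATDRAFT_53914 (3.59, SE 0.68, adjusted p = 0.00025) and TRIATDRAFT_283564 (1.73, SE 0.33, adjusted p = 0.00027). Gene TRIATDRAFT_53914, a general substrate MFS transporter, had 8, 7 and 6 counts in Δblr-2 light, against 1, 0 and 1 counts in Δblr-2 darkness, so its fold is poorly bounded (95% interval 2.18 to 4.99). edgeR and DESeq2 called 0 of the 9 lower in Δblr-2, and 3 had an unadjusted p under 0.05 in that direction. In Δblr-1 edgeR and DESeq2 called 0 of the 9 in either direction, with 1 higher and 1 lower at an unadjusted p under 0.05. The list's medians were 0.34 in Δblr-2 and -0.04 in Δblr-1, against -0.016 and -0.00078 over all genes tested. The medians of the 3 members were -0.97 in Δenv-1, -0.57 in Δblr-2 and -0.57 in Δblr-1.

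Gene TRIATDRAFT_284272, a general substrate MFS transporter, was not called in light in any of the 3 mutants. It averaged 3.57 ± 0.452 CPM in Δenv-1 light and 5.22 ± 1.52 CPM in Δenv-1 darkness, and 1.88 ± 0.27 CPM in Δblr-2 light and 2.41 ± 0.163 CPM in Δblr-2 darkness (SD, n = 3 each). Its log2 fold change in light was -0.63 (SE 0.35, adjusted p = 0.389) in Δenv-1, -0.35 (SE 0.38, adjusted p = 0.511) in Δblr-2, -0.98 (SE 0.35, adjusted p = 0.206) in Δblr-1 and -1.31 (SE 0.32) in WT. Its dark level was lower in Δblr-2 than in Δblr-1 (-1.37, SE 0.34, adjusted p = 0.00667), as for TRIATDRAFT_153853 and TRIATDRAFT_45374. It was singled out after its values were seen.

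**Figure D5:**
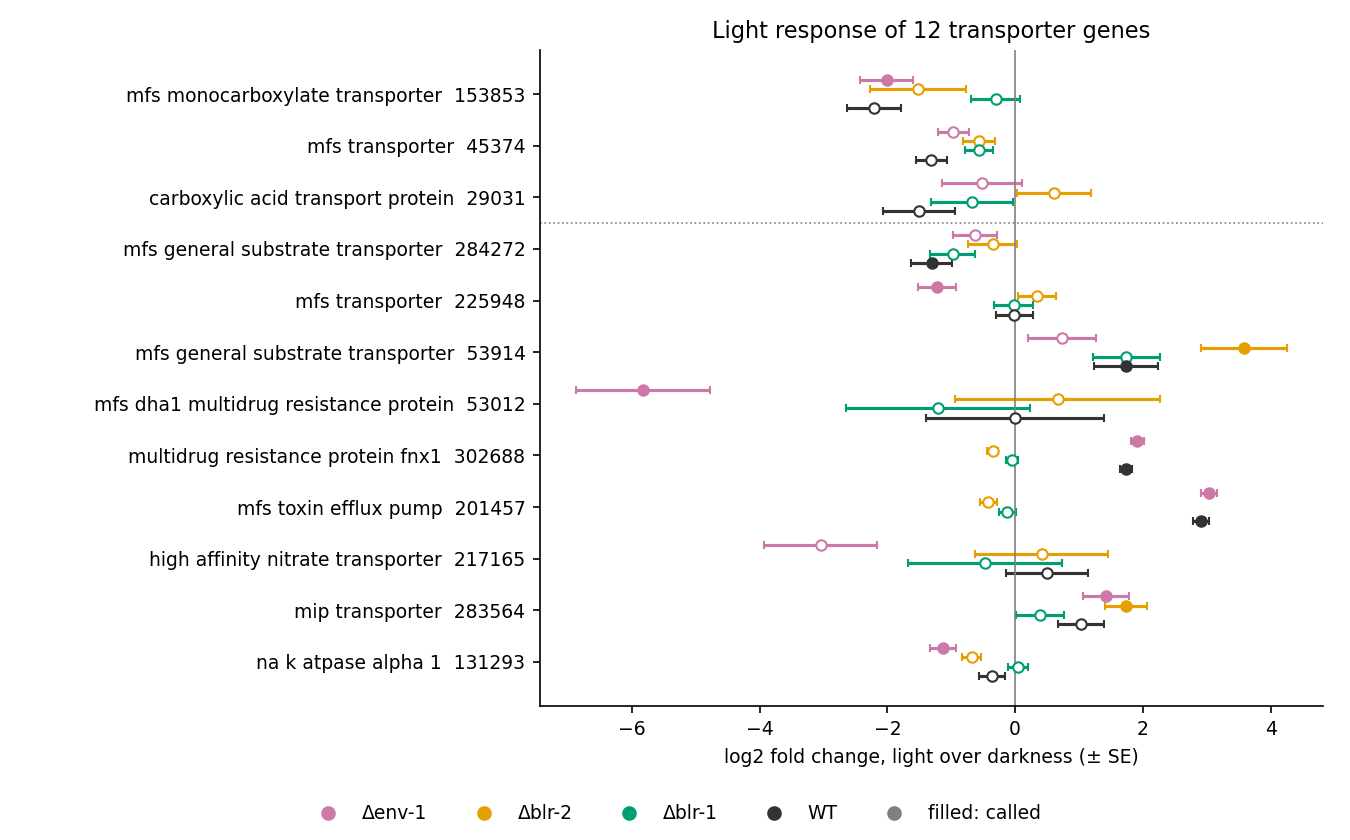
Log2 fold change of light over darkness (horizontal axis, points with SE bars) for the 3 described genes, above the dotted line, and 9 other transporter genes named by the study, in Δenv-1, Δblr-2, Δblr-1 and WT. Filled points are called, and the WT points of the 3 described genes are open because they were not tested. Points of TRIATDRAFT_201457 and TRIATDRAFT_302688 lie right of 0 in Δenv-1 and WT and at or left of 0 in Δblr-2 and Δblr-1, and TRIATDRAFT_53012 reaches -5.83 in Δenv-1.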

How the data were processed

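RNA of 24 libraries (Δenv-1, Δblr-2, Δblr-1 and WT, light and darkness, 3 each) was sequenced, and the authors checked reads with FastQC and assigned them with kallisto to predicted transcripts. The deposited values are the authors' estimated counts, not normalized. The series also holds samples of the Δcry-DASH and Δcry-1 mutants in light and darkness. The names of 12 further columns gave no clear match to a sample label, and these were not used here. Counts were rounded (8.35% were not exact whole numbers, and 0% of those of the 3 genes), and genes were kept by filterByExpr with a minimum count of 10. TMM scaling and quasi-likelihood tests of edgeR 4.0.16 under R 4.3.3 were applied to 23 libraries with 1 mean per strain and treatment, with Benjamini-Hochberg adjustment over 9605 genes. Calls of light responses and levels required an adjusted p no higher than 0.05 and a log2 change of 1 or more in size, and calls of differences in response the adjusted p alone. These steps were tested on simulated data. Contrasts with WT, which chose the genes, were not tested for them.

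The members and lists were chosen with earlier results of these data known. Genes named are the 3 members, 9 transporters that the study names by product, and for each member the 3 genes of highest correlation over the 24 libraries. Of the Ids, 10686 matched the RefSeq gene table of strain P1, which gave gene order only. Depth ranged from 1519260 to 22011847 counts, which limits TRIATDRAFT_29031 and, in Δblr-2, TRIATDRAFT_153853. Counts of TRIATDRAFT_153853 were also low in light replicate 1 of Δblr-1 (4 counts) and of Δenv-1 (5 counts). The replicate numbers come from the sample titles. Deviations from group means of same-numbered light and dark libraries correlated at 0.248, 0.591 and 0.411 in WT and 0.128, 0.264 and 0.122 in Δblr-1, each over 0.1, so the numbers were taken to pair these samples. In Δblr-2 (0.0392, 0.145 and 0.0987) and Δenv-1 (0.174, 0.0753 and 0.0991) not all were over 0.1. There each library was still closest to its same-numbered partner, so the cutoff leaves pairing in these strains undecided. In WT that did not hold for darkness replicate 1, which was closer to light replicate 3 (0.266) than to light replicate 1 (0.248). The main fit used no replicate block in any strain, WT and Δblr-1 included. No replicate pair was as close as sampling noise. RLE scaling, other filters, edgeR's likelihood ratio test, DESeq2 1.42.0, Δenv-1 darkness replicate 3 included, replicate blocks, strains fitted alone, unrounded counts and each library left out were tried.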

Additional observations from a re-analysis of the deposited data

Results flagged for a closer look

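For the 3 members no difference in light response between mutants passed the adjusted p. It did for 6 of the 9 other transporters in at least 1 contrast, by edgeR's test of the difference itself. The study drew that list from these same samples, so this count is not independent evidence that transporters differ between strains. Of all tested genes 1.46% were called in Δenv-1 minus Δblr-1, 20.2% in Δenv-1 minus Δblr-2 and 15.7% in Δblr-2 minus Δblr-1. Differences are given as log2. In Δenv-1 minus Δblr-1 the differences were 3.16 for the toxin efflux pump TRIATDRAFT_201457 (adjusted p = 1.02e-10), 1.96 for the multidrug resistance gene TRIATDRAFT_302688 (adjusted p = 1.62e-09) and -1.16 for the pump subunit TRIATDRAFT_131293 (adjusted p = 0.0191). In Δenv-1 minus Δblr-2 they were 3.46 for TRIATDRAFT_201457 (adjusted p = 1.8e-11), 2.27 for TRIATDRAFT_302688 (adjusted p = 8.64e-11), -6.49 for TRIATDRAFT_53012 (adjusted p = 0.0337), -2.85 for TRIATDRAFT_53914 (adjusted p = 0.0287) and -1.57 for TRIATDRAFT_225948 (adjusted p = 0.0117). In Δblr-2 minus Δblr-1 the difference was -0.72 for TRIATDRAFT_131293 (adjusted p = 0.0265). The light response in Δenv-1 behind the values of TRIATDRAFT_53012 and TRIATDRAFT_225948 was -0.40 and -0.26 without Δenv-1 darkness replicate 1.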

How the results depend on the processing

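The 2 genes called between Δblr-2 and each other mutant, TRIATDRAFT_153853 and TRIATDRAFT_45374, kept direction and call in light and darkness under every alternative that gave a value. The call of TRIATDRAFT_153853 in Δenv-1 was lost without Δenv-1 darkness replicate 1 (-1.57, adjusted p = 0.105; range with 1 library left out -2.39 to -1.57). Gene TRIATDRAFT_45374 was called in Δenv-1 under the replicate block (-1.02, adjusted p = 7.19e-05) and without Δenv-1 light replicate 3 (range -1.07 to -0.87). The replicate block changed no other call of the 3 genes in a light response, and among the 9 other transporters it changed those of TRIATDRAFT_225948 and TRIATDRAFT_217165 in Δenv-1. In Δblr-2 and Δenv-1 not every same-numbered correlation was over 0.1, yet every library correlated best with its own number. Pairing there was left undecided, and the block calls in Δenv-1 depend on it. No block could be fitted for levels between strains. In light, Δenv-1 over Δblr-1, TRIATDRAFT_153853 was called by the likelihood ratio test (-1.30, adjusted p = 0.0257), with the strains fitted alone (-1.31, adjusted p = 0.0226) and with 3 of the 23 libraries left out in turn (range -1.43 to -1.10).

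Uncalled values that changed sign lay near 0 or rested on few counts, and the cause was not tested. For TRIATDRAFT_45374, Δblr-2 minus Δblr-1, they were 0.0036 with RLE, 0.0050 without the filter, 0.033 with the likelihood ratio test, 0.036 with DESeq2 and 0.0043 with Δenv-1 darkness replicate 3 (1 library left out: -0.15 to 0.11). DESeq2 gave -0.055 for TRIATDRAFT_29031 in Δenv-1 minus Δblr-1 (1 library left out: -0.90 to 0.997) and -0.020 in darkness, Δenv-1 over Δblr-2 (-0.57 to 0.60). With 1 library left out, TRIATDRAFT_29031 ranged from -1.57 to 0.32 in Δenv-1 light, from -0.82 to 0.016 in darkness, Δblr-2 over Δblr-1, and from -1.12 to 0.051 in darkness and -1.21 to 0.25 in light, Δenv-1 over Δblr-1. In light, Δenv-1 over Δblr-2, it ranged from -1.97 to -0.65 and was called without Δenv-1 light replicate 2 (adjusted p = 0.0409). Gene TRIATDRAFT_153853 ranged from -1.58 to 0.15 in Δblr-2 minus Δblr-1 and from -0.030 to 0.79 in darkness, Δenv-1 over Δblr-1. In Δblr-1, with 1 library left out, uncalled values ranged from -0.091 to 0.034 for TRIATDRAFT_302688, -0.30 to 0.058 for TRIATDRAFT_201457, -0.97 to 0.13 for TRIATDRAFT_217165 and -0.024 to 0.098 for TRIATDRAFT_131293.

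Counts of genes called moved most where few were called. They were 78 in WT with that strain alone, against 123. In Δblr-1 they were 30 by the likelihood ratio test, 40 under the replicate block and 30 with the strain alone, against 19 (1 library left out: 5 to 26). In Δenv-1 they were 201 with darkness replicate 3, against 123 (94 to 207). For Δenv-1 minus Δblr-1 they were 231 by the likelihood ratio test and 220 with that replicate, against 140. In darkness, Δenv-1 over Δblr-1, they were 32 by the likelihood ratio test, 25 by DESeq2 and 56 with that replicate, against 13 (6 to 108). A minimum count of 50 removed low genes, which then had no value.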
